A study of Mus musculus with 8 samples.

Results

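Among the alveolar cells of the mammary gland at day 6 of lactation, the authors told apart a cluster they took to be differentiated (C9) and one they took to be progenitors (C11), and the data below describe how the transcripts of these clusters differed. Both identities are putative and were read from the genes the clusters express. The cells are those of C9 and C11 in the deposited annotation, taken only from the lactation libraries and only where a cell had passed all quality flags. C9 held 42 cells in mouse L1 and 47 in mouse L2, C11 held 142 and 89, and together they made up 320 of the 25010 cells of the series. Outside the 2 lactation libraries no cell of either cluster occurred. All mice were C57BL/6N females with no transgene or drug, with 2 mice for each of 4 stages: 8-week-old nulliparous females, gestation at day 14.5 (G), lactation at day 6 (L), and the involuted gland 11 days past weaning. The mammary cells of each mouse were sorted for EpCAM, an epithelial surface protein, after cells positive for CD31, CD45 or Ter119 had been gated out, and made into 1 droplet library of the 3' ends of transcripts. The gestation clusters C8 (named differentiated, 1926 and 1818 cells) and C10 (named progenitor, 89 and 126 cells) are used at the end as the nearest counterpart, and nulliparous and post-weaning cells are not used.

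Alveolar cells make milk. Under prolactin, which signals through its receptor PRLR and the transcription factor STAT5, they switch on the genes of caseins and whey proteins, make lactose in the Golgi, build fat from glucose and from blood lipids, and release it as droplets wrapped in the apical membrane. Alveolar progenitors are luminal cells that are committed to this fate and still carry genes of luminal progenitors, such as Aldh1a3, Kit and Cd14. Luminal cells are surrounded by contractile basal, or myoepithelial, cells, which do not make milk.

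The 4 sums of unique molecular identifiers (UMIs, each a captured transcript) that were compared held 572463 and 741979 UMIs in C9 and 1081043 and 850646 in C11, in mouse L1 and L2. The whole libraries held 27658617 and 20586478. Basal cells of cluster C14, of which these libraries held 4637 and 3104, served as the background, that is, as the measure of milk transcripts counted in cells that do not make milk. Milk took 0.0833% to 0.144% of the UMIs of the smaller clusters C15, C17, C18 and C19 of these libraries, less than in C14 (0.181% and 0.212%), so that a level called background depends on this choice. In the text, the level of a milk protein gene is its percent of all UMIs of a sum. The level of any other gene is in CPM, its UMIs scaled to a common total of the UMIs of genes outside the 8 milk protein genes, because milk took up so much of C9. No barcode of a C9 or C11 cell was found in another library.

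The clusters were checked against markers, here scaled to all UMIs, milk included. The 5 luminal markers (Epcam, Krt8, Krt18, Krt19, Cdh1) summed to 8607 and 13419 CPM in C11, 2680 and 3771 in C9 and 2282 and 1611 in C14. The 5 alveolar markers (Csn2, Csn3, Wap, Lalba, Elf5) summed to 41508 and 35807 in C11, 217232 and 208492 in C9 and 783 and 847 in C14. Elf5, which encodes the transcription factor of the alveolar lineage, stood at 847 and 826 CPM outside milk in C9, at 784 and 677 in C11 and at 4.69 and 3.38 in C14. Of the 4 progenitor markers, Aldh1a3, Kit and Tspan8 were higher in C11, and Cd14 was not. Of the 9 immune markers 6 or 7 were detected in each sum, with Cd74 at 49.9 to 290 CPM of all UMIs and the T and B cell markers Cd3e and Cd79a at 0. Of the 5 markers of fat cells 1 or 2 were detected, summing to 4.04 to 15.7 CPM, most or all of it Lep, against 81.6 and 85.5 in C14, with Adipoq at 0. Basal markers were not at 0: all 12 were detected in every sum, and summed to 10109 and 7430 CPM (here scaled to all UMIs) in C11, 4109 and 1809 in C9 and 72420 and 65642 in C14. For each of the 12, the level in C11 was 12.3% to 20.5% of that in C14 in mouse L1 and 11.3% to 15.6% in mouse L2. In C9 these shares were 7.20% to 13.2% and 2.52% to 8.38%.

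Milk protein transcripts took up 44.8% of all UMIs of C9 in mouse L1 and 41.7% in mouse L2. In C11 they took up 7.21% and 5.92%, and in C14 0.181% and 0.212%. The means were 43.2% ± 2.15 (SD, n = 2) and 6.57% ± 0.916 (SD, n = 2), and C9 exceeded C11 by 36.7 ± 1.23 percentage points (SD, n = 2 mice). The share was higher in C9 in 2 of 2 mice, and no test was made, since an exact permutation test within 2 mice cannot go below p = 0.5. The UMIs of other genes per cell were close in the 2 clusters. A C9 cell held on average 6100 and 6586 milk UMIs, against 549 and 566 in C11, while UMIs of other genes numbered 7530 and 9201 in C9 and 7064 and 8992 in C11. The median number of genes detected per cell was 1896 and 2401 in C9 and 2003 and 2216 in C11.

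The clusters met in a range of single cells. The milk share of a C9 cell ran from 12.2% to 76.0% in mouse L1, with a median of 38.4%, and from 7.46% to 75.3% in mouse L2, with a median of 34.6%. In C11 it ran from 0.072% to 26.9%, with a median of 4.09%, and from 0.026% to 30.1%, with a median of 2.26%. Thus 21 of 142 and 20 of 89 C11 cells had a larger milk share than the lowest C9 cell of the same mouse. At the other end, 26 and 33 C11 cells had less than 1% of their UMIs from milk protein genes, and no C9 cell did.

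**Figure D1:**
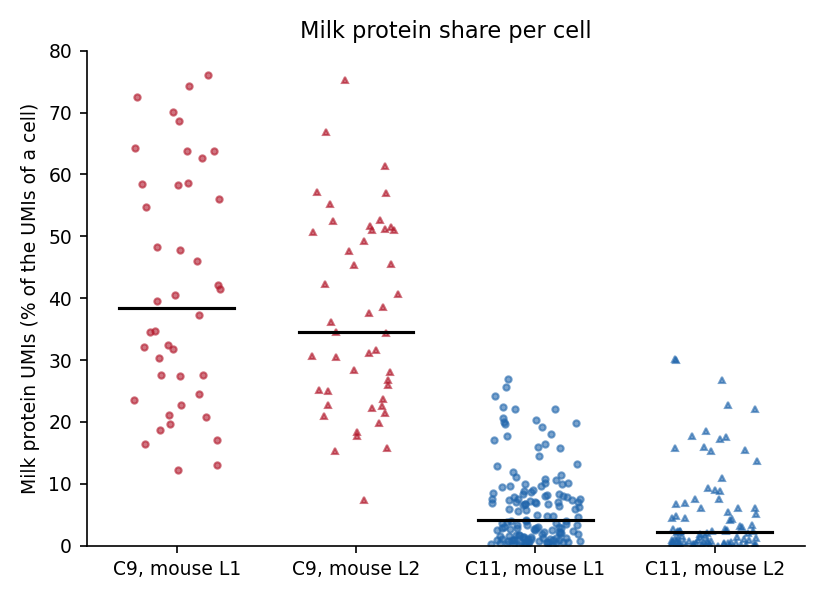
Milk protein share of each C9 (red) and C11 (blue) cell, in percent of the UMIs of the cell, with circles for mouse L1 and triangles for mouse L2 and a black line at the median of each sum. C9 medians lie at 38.4% and 34.6% and C11 medians at 4.09% and 2.26%, and the lowest C9 cells lie within the range of C11.

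The 8 milk protein genes did not differ by the same amount. All 8 were higher in C9 by edgeR's quasi-likelihood test on the 4 sums with the mouse as a block and Benjamini-Hochberg adjustment over all genes tested, with log2 fold changes from 1.66 to 8.77. The clusters had been made by the authors from the same counts, so these calls, and all that follow, describe how the clusters differ and are not independent tests of it. Ratios to C14 and to the smaller clusters, here and below, are taken with milk UMIs left out of the totals. C11 held Wap, Csn1s2b and Glycam1 at 0.239 to 3.16 times the level of C14, and the other 5 genes at 33.6 to 131 times. Relative to C15, C17, C18 and C19, each taken in turn, a comparison added after the data were seen, these ranges were 1.12 to 12.1 times and 41.6 to 306 times.

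Wap, Csn1s2b and Glycam1 were low in C11. Wap encodes whey acidic protein, the main whey protein of the mouse, and lies at chr11:6635482-6638637 on the minus strand (GRCm38). It made up 9.18% and 10.2% of the UMIs of C9, 0.0241% and 0.0681% of those of C11, and 0.0323% and 0.0392% of those of C14. With milk UMIs left out of the totals, C11 held 0.805 times the level of basal cells in mouse L1 and 1.84 times in mouse L2. Against the 4 smaller clusters it was 1.12 to 1.87 times in mouse L1 and 3.96 to 4.98 times in mouse L2. In mouse L2 the Wap level of C11 was thus above that of C14 and of each smaller cluster. In mouse L1, whether C11 exceeded the background of Wap depends on the cells taken as background. The log2 fold change between C9 and C11 was 8.77 ± 0.67 (SE), with an adjusted p of 5.30e-16. Csn1s2b, a casein gene, took 2.79% and 2.05% in C9 and 0.0426% and 0.0153% in C11. With milk UMIs left out of the totals, C11 held 0.892 and 0.239 times the level of C14. Against the 4 smaller clusters it was 1.19 to 5.48 times over both mice. Whether C11 exceeded the background of Csn1s2b thus depends on the cells taken as background. The log2 fold change of Csn1s2b was 7.41 ± 0.53. Glycam1, which encodes a mucin of the milk, varied most between the mice, at 0.456% and 2.89% in C9 and 0.00555% and 0.0246% in C11. C11 held 2.78 and 3.16 times the level of C14, and the log2 fold change was 7.51 ± 0.51.

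Csn3, Csn2, Csn1s2a, Csn1s1 and Lalba were well above the background in C11 and higher still in C9. Csn2, which encodes beta-casein, took 9.69% and 8.02% of the UMIs of C9, 2.57% and 2.04% in C11 and 0.0333% and 0.0322% in C14. With milk UMIs left out of the totals, C11 held Csn2 at 83.1 and 67.3 times its level in basal cells. Its log2 fold change was 2.82 ± 0.51, with an adjusted p of 2.57e-05. Csn3, which encodes kappa-casein, the protein that keeps casein micelles in suspension, differed least, at 2.59% and 2.27% in C9 and 1.44% and 1.37% in C11. C11 held 131 and 120 times the background of Csn3, and the log2 fold change was 1.66 ± 0.41 with an adjusted p of 0.00298. Csn1s2a, another casein gene, was the most abundant milk transcript of C9, at 14.4% and 12.4%, and came after Csn2 in C11, at 2.42% and 1.82%. Lalba, which encodes alpha-lactalbumin, the partner of galactosyltransferase in lactose synthesis, took 0.216% and 0.315% in C9, 0.0438% and 0.0348% in C11 and 0.000563% and 0.000812% in C14. Its log2 fold change was 3.61 ± 0.34. Csn1s1, Csn2, Csn1s2a, Csn1s2b and Csn3 lie in the same stretch of chromosome 5, between 87666208 and 87932665, and their log2 fold changes were 3.75, 2.82, 3.54, 7.41 and 1.66, so that neighbours in this stretch differed widely.

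**Figure D2:**
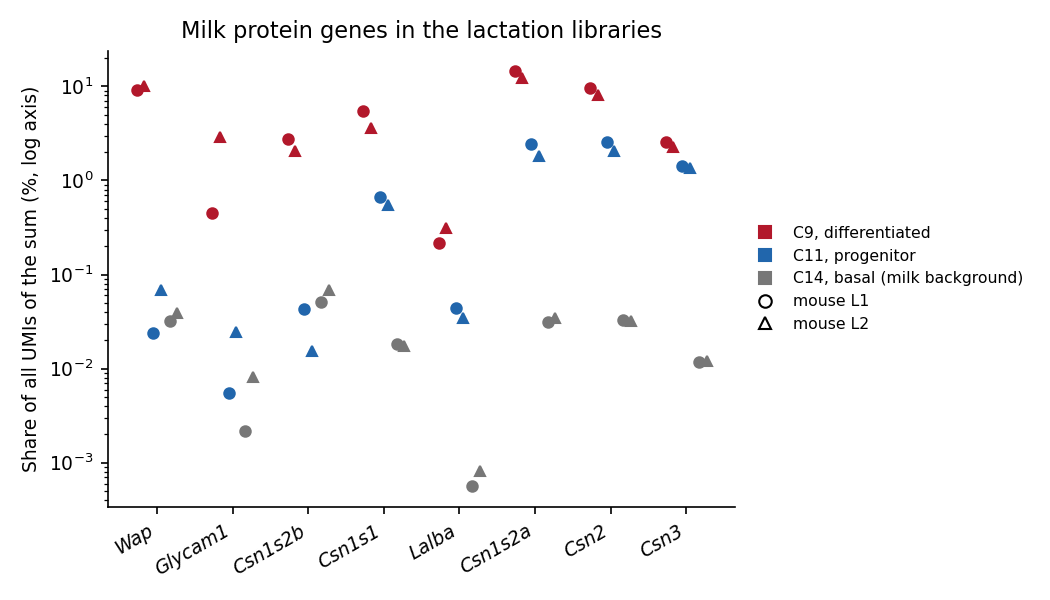
Share of all UMIs (percent, log axis) of each milk protein gene in C9, C11 and the basal cells of C14 in mouse L1 (circles) and L2 (triangles). C11 lies far above C14 for Csn3, Csn2, Csn1s2a, Csn1s1 and Lalba. For Wap and Csn1s2b, C11 held 0.239 to 1.84 times the level of C14 with milk UMIs left out of the totals, a scale not drawn here.

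The promoters of genes of both groups are given, since STAT5 binds the palindrome TTCNNNGAA (the GAS motif, with N any base). The sequences are the 250 bases before the start of the gene in RefSeq (GRCm38.p6), on the strand of the gene, with each match to the motif in capitals. Pip, which is described below, had the largest rise of all genes by the rule used here.
Pip (chr6:41847299-41847548, plus strand): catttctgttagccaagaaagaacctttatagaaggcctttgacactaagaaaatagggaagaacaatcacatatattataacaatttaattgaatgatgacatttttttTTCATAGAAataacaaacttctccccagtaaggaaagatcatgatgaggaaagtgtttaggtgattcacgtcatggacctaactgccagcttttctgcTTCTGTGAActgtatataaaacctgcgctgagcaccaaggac
Wap (chr11:6638650-6638899, minus strand): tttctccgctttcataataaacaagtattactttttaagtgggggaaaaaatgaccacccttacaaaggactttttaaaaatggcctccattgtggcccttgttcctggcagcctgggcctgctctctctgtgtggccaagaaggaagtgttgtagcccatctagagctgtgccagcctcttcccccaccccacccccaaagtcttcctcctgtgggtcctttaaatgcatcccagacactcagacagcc
Glycam1 (chr15:103565082-103565331, minus strand): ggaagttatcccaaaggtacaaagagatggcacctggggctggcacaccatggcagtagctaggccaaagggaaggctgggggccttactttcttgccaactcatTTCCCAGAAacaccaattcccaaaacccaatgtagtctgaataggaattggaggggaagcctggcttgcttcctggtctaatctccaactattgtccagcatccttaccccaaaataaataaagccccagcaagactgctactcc
Csn1s1 (chr5:87665958-87666207, plus strand): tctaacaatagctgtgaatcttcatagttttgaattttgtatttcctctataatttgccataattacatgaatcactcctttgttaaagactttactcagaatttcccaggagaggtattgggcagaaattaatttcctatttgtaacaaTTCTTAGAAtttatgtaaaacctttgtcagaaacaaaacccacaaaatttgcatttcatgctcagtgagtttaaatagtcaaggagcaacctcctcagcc
Csn2 (chr5:87699426-87699675, minus strand): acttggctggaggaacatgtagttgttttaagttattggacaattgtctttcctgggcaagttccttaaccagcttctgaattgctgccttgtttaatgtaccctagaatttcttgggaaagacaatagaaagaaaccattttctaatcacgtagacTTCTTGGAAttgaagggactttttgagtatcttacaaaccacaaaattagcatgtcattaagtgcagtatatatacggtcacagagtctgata
The motif began 140 and 42 bases before the start of Pip, 145 before that of Glycam1, 100 before that of Csn1s1 and 93 before that of Csn2. Neither Wap nor Lalba held it in the 300 bases searched, which also take in 50 bases after the start. Of 6 milk protein genes with a promoter in the table, 4 held it, in genes of the large and of the small difference alike. It was found in 9.554% of 27025 genes with a promoter, in 11.411% of the 333 such genes that were higher in C9, in 7.483% of the 294 that were lower and in 7.533% of those not called. A match is a string of letters and no evidence of binding.

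Across all genes, 838 of 6115 tested were called, or 13.7%, with 437 (7.15%) higher and 401 (6.56%) lower in C9. Counts of calls in the gene lists below are to be read against these shares, under which a short list would hold few calls. The median log2 fold change of all genes was -0.02. Of the 838, 832 had the same sign in both mice, and in 823 the values of C9 and C11 did not overlap, against 53.1% of all tested genes. When the milk protein genes were left out of the library totals, 777 of 5965 genes were called, 399 higher and 378 lower. Of these, 764 were called both ways, each with the same sign, and no log2 fold change of a gene moved by more than 0.032. Both fits scaled the sums by the trimmed mean of M values (TMM). On plain totals with milk included and no such scaling, the median of all genes fell to -0.89 and 3113 genes were called lower, against 142 higher. On plain totals without milk the median was -0.14, with 303 genes called higher and 475 lower. Positive differences smaller than the shift of the first of these scales, such as most of those of oxidative phosphorylation genes, turn negative on it, and all changes below are relative to the bulk of genes. Fold changes below are on the TMM scale, and they differ by a small offset from the ratios of the levels printed beside them.

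**Figure D3:**
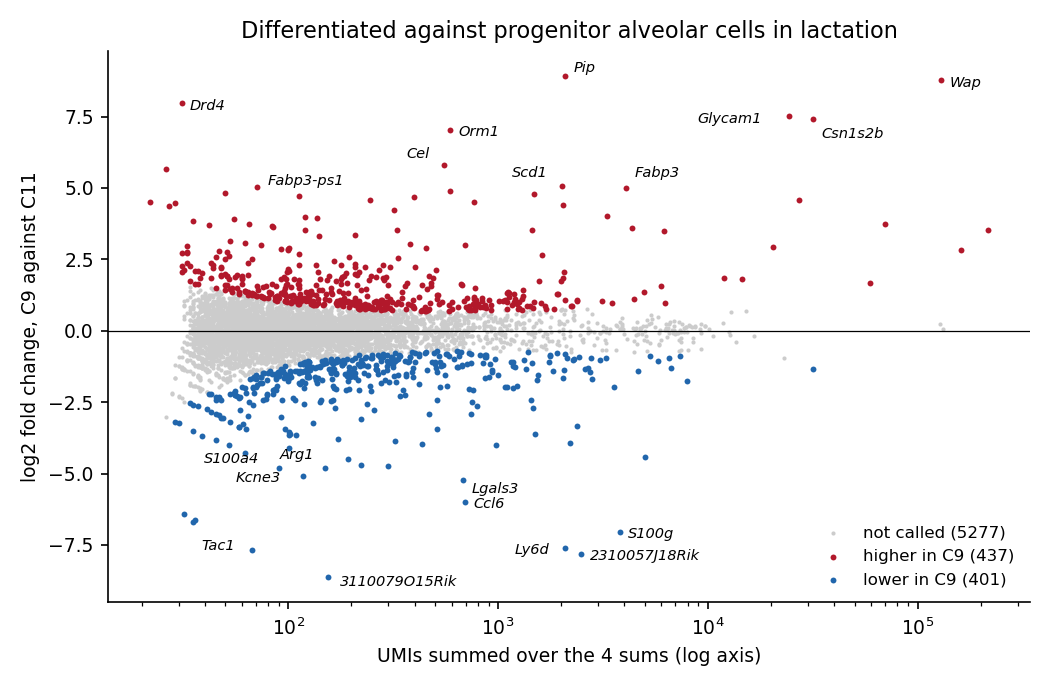
Log2 fold change of C9 against C11 for each tested gene against its UMIs summed over the 4 sums (log axis), with 437 genes higher in C9 in red, 401 lower in blue and the rest in grey. Labels mark the 10 largest rises and 10 largest falls by the rule on level and overlap.

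Besides Wap, Glycam1 and Csn1s2b, the 10 largest rises were those of Pip, Drd4, Orm1, Cel, Scd1, Fabp3-ps1 and Fabp3. Pip (chr6:41847535-41852065, plus strand) encodes prolactin-induced protein, a secreted protein of exocrine glands. It stood at 3393 and 2303 CPM in C9, 9.97 and 2.50 in C11 and 2.66 and 1.63 in C14, and rose by 8.93 ± 0.45 on the log2 scale with an adjusted p of 5.67e-23. Cel, which encodes the bile salt-stimulated lipase of milk, stood at 575.5 and 800.1 in C9 and at 16.9 and 8.75 in C11, a log2 fold change of 5.81 ± 0.35. Orm1, an acute phase protein of the serum, stood at 582 and 909 in C9 and 2.99 and 10.00 in C11, a log2 fold change of 7.04 ± 0.37. Drd4, a dopamine receptor, had 20 and 11 UMIs in C9 and none in C11, and was at least 24.9-fold higher when 3 counts over both mice were allowed for in C11. Fabp3-ps1 is a processed pseudogene of Fabp3, so that reads of the highly expressed parent may have been assigned to it, and its log2 fold change of 5.03 is uncertain.

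Most genes of milk fat synthesis were higher in C9. Of 23 tested genes of fatty acid and triacylglycerol synthesis, 20 rose and none fell, with a median log2 fold change of 1.61 against -0.02 for all genes, and 19 rose when milk was left out of the totals. Their summed level was 9587 and 9618 CPM in C9 and 2673 and 2548 in C11. Scd1, which encodes the desaturase that makes oleate, stood at 2156 and 2736 in C9 and at 68.8 and 92.5 in C11, and rose by 5.08 ± 0.34. Fasn, the fatty acid synthase, stood at 538 and 252 in C9 and at 24.9 and 20.0 in C11, a rise of 4.23 ± 0.30. In basal cells Scd1 stood at 46.0 and 50.5 and Fasn at 17.6 and 15.9, below C11 in both mice. C11 exceeded basal cells in these genes by far less than C9 exceeded C11. Olah, the thioesterase that ends the chain early and so gives milk its medium-chain fatty acids, stood at 651 and 291 in C9 and at 71.8 and 60.0 in C11, far above the 2.28 and 1.39 of C14, and rose by 2.91 ± 0.27. Thrsp, a regulator of lipogenesis, rose by 4.49, Slc25a1, which exports citrate from mitochondria, by 3.31, and Acly and Acaca, which turn citrate into the building blocks of fatty acids, by 2.31 and 2.29. Srebf1, which encodes the transcription factor of this pathway, rose by 1.99 ± 0.28, from 39.9 and 51.2 to 130 and 197.

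Of 7 tested genes of fatty acid uptake, 4 rose and none fell, with a median of 1.55. Fabp3, which carries fatty acids in the cytosol, stood at 5372 and 4757 in C9 and at 137 and 222 in C11, a log2 fold change of 5.01 ± 0.36. Lpl, the lipase that frees fatty acids from blood lipids, stood at 781 and 673 against 31.9 and 22.5 and rose by 4.88 ± 0.31, and Cd36, a fatty acid transporter, rose by 3.02 ± 0.27. Synthesis and uptake of fat therefore both had members with more than 4 units of change.

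Genes of the milk fat globule were less uniform. Of 9 tested, 4 rose and none fell, with a median of 0.48. Cidea, which enlarges lipid droplets, stood at 2017 and 1221 in C9 and at 190 and 122 in C11, and rose by 3.51 ± 0.30. Plin2, which coats droplets, rose by 1.83 ± 0.30, Muc1 by 1.57 ± 0.25, and Xdh, whose product couples the droplet to the apical membrane, by 0.94 ± 0.25 with an adjusted p of 0.00520. The call of Xdh was lost with DESeq2 (log2 fold change 0.95, adjusted p = 0.111) and on plain totals with milk (0.07, 0.811). Btn1a1, the membrane partner of Xdh, did not pass the test, with 1091 and 906 CPM in C9, 965 and 740 in C11 and a log2 fold change of 0.39 ± 0.27. Mfge8 did not pass it either, at 2277 and 2999 against 2090 and 2085. Btn1a1 was thus already at a high level in C11, against 3.70 and 3.02 in basal cells.

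Of 9 tested genes of lactose synthesis, 4 rose and 1 fell. B4galt1, the galactosyltransferase that makes lactose with alpha-lactalbumin, stood at 443 and 335 in C9 and at 56.8 and 47.5 in C11, and rose by 3.04 ± 0.26. The fall was that of Hk1, a hexokinase, from 46.9 and 70.0 to 9.49 and 18.5, a log2 fold change of -1.86 ± 0.43. In cholesterol synthesis 7 of 20 rose and 1 fell, with a median of 0.24 (5 and 1 with milk left out of the totals). Pmvk, a kinase of the mevalonate pathway, rose by 1.60 ± 0.27, and Hmgcs1, an early enzyme of the same pathway, fell by 1.17 on the log2 scale. Without mouse L2 the log2 fold change of Hmgcs1 was -0.80 and not called (adjusted p = 0.144). With a mouse left out, 1 library of each cluster remains, and the spread is that of the gestation clusters, which the lone pair is assumed to share.

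**Figure D4:**
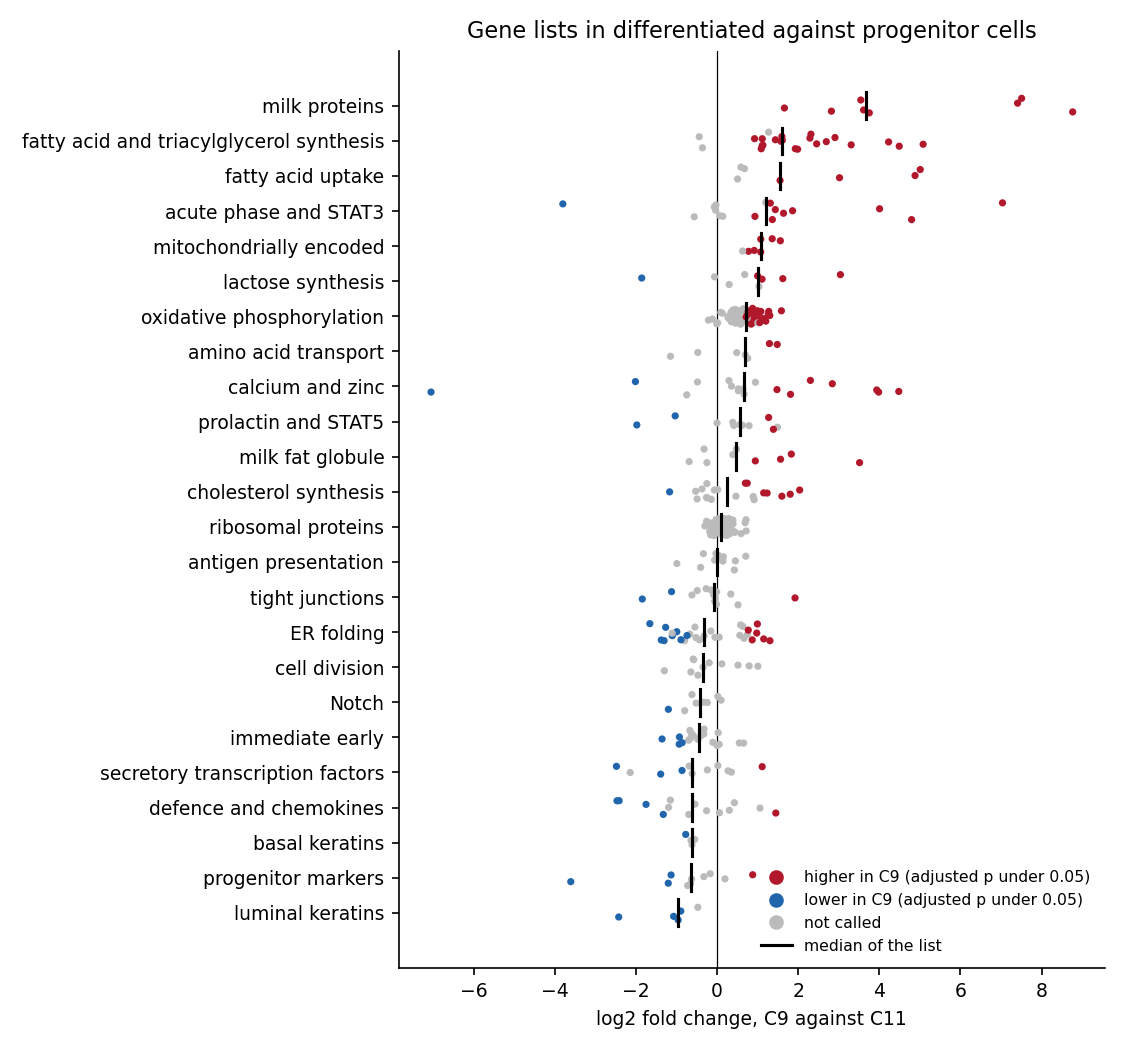
Log2 fold change of C9 against C11 for the tested members of each gene list, with called genes in red (higher in C9) or blue (lower in C9), others in grey and a black bar at the median of the list. Medians run from 3.68 for milk proteins to -0.96 for luminal keratins.

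The progenitor list held Aldh1a3, the largest difference among its members. Aldh1a3 encodes a retinaldehyde dehydrogenase (chr7:66390890-66427517). It stood at 133 and 11.6 CPM in C9 and at 631 and 1028 in C11, and fell by 3.61 ± 0.40 on the log2 scale with an adjusted p of 1.96e-10. The 2 mice differed in size, with log2 fold changes of -2.16 in L1 and -6.10 in L2, and DESeq2 gave -4.14 without a call (adjusted p = 0.0655). A UMI of Aldh1a3 was found in 14.3% of C9 cells of mouse L1 (95% exact binomial interval 5.43% to 28.5%) and 8.51% of those of mouse L2 (2.37% to 20.4%), against 70.4% (62.2% to 77.8%) and 85.4% (76.3% to 92.0%) of C11 cells. In basal cells, which should lack it, the shares were 0.604% and 0.805%, at median depths of 3701 and 4148 UMIs, and the median depth was 11602 and 16271 in C9 and 6691 and 8065 in C11. With every cell thinned to 1000 UMIs, which leaves fewer non-milk UMIs in C9, the shares were 2.38% and 2.13% in C9 and 34.5% and 55.1% in C11.

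Of the 10 tested progenitor markers 3 fell and 1 rose, with a median of -0.64. Kit, a receptor tyrosine kinase, stood at 47.4 and 48.6 in C9 and at 130 and 119 in C11, a log2 fold change of -1.20 ± 0.30. Tspan8, a tetraspanin of the cell surface, fell by 1.13. Cd14, a co-receptor for bacterial lipopolysaccharide, stood at 613 and 869.5 in C9 and at 450 and 437 in C11, with a log2 fold change of 0.88 (adjusted p = 0.0174). This call was lost in 7 alternatives, among them without mouse L2 (0.43, adjusted p = 0.0651), without cells over 1% basal UMIs (0.69, 0.0608) and on plain totals without milk (0.72, 0.0509). The share of cells with a UMI of Cd14 went the other way, at 71.4% and 66.0% in C9 and 75.4% and 80.9% in C11, with 3.39% and 4.22% in C14, and thinned to 1000 UMIs it was 31.0% and 27.7% against 33.1% and 38.2%. No direction is read for Cd14. In the Notch pathway, which keeps cells in the luminal fate, 1 of 8 tested genes was called, against 13.7% of all tested genes. It was Hey1, a target gene, which fell by 1.20 ± 0.32. The call of Hey1 was lost with DESeq2 (log2 fold change -1.22, adjusted p = 0.307). It was also lost with no replicate block (-1.23, 0.136) and at equal cell number (-0.97, 0.0876).

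Of 11 tested genes of prolactin signalling, 2 rose and 2 fell, with log2 fold changes from -1.98 to 1.49 and a median of 0.56. The rises were those of Ghr, the growth hormone receptor, at 37.9 and 43.9 CPM in C9 and 15.95 and 18.7 in C11 (1.39 ± 0.44), and of the kinase gene Akt1, at 72.7 and 71.7 against 33.9 and 32.5 (1.27 ± 0.32). The falls were those of Igf1r, the receptor of insulin-like growth factor, with 4 and 1 UMIs in C9 and 31 and 24 in C11 (-1.98 ± 0.64), and of Socs2, an inhibitor of cytokine signalling, at 25.3 and 46.3 CPM against 94.7 and 74.97 (-1.03 ± 0.34). All 4 calls were lost in several alternatives. Without mouse L2 the log2 fold changes were 1.23 for Ghr (adjusted p = 0.218), 1.09 for Akt1 (0.0925) and -1.30 for Igf1r (0.314), and without mouse L1 that of Socs2 was -0.49 (0.473). Without cells over 1% basal UMIs, Igf1r was at -1.43 (0.214). Prlr, the receptor, stood at 79.0 and 62.4 in C9 and at 42.9 and 58.7 in C11 (adjusted p = 0.198), and Stat5a at 56.9 and 50.9 against 40.9 and 28.7 (adjusted p = 0.129). Of 11 tested transcription factors of secretory cells, 1 rose and 3 fell. Xbp1, which drives the secretory machinery, stood at 809 and 622 in C9 and at 444 and 299.9 in C11, a log2 fold change of 1.11 ± 0.26. Elf3 and Ehf, epithelial factors of the same family as Elf5, fell by 2.48 ± 0.30 and 1.39 ± 0.26, while Elf5 had a log2 fold change of 0.35 ± 0.27 (adjusted p = 0.462).

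Luminal keratins, the filaments of the luminal cytoskeleton, were lower in C9, with 4 of 5 called and a median of -0.96. Krt19 stood at 1350 and 1027 in C9 and at 2400 and 3158 in C11, a log2 fold change of -1.07 ± 0.30. Krt8 and Krt18 had log2 fold changes of -0.96 and -0.89 with adjusted p values of 0.0230 and 0.0372. Both calls were lost with DESeq2, with no replicate block, at equal depth and at equal cell number. In these alternatives the log2 fold changes ran from -0.96 to -0.84. The call of Krt19 was lost at equal cell number (-0.88, adjusted p = 0.123). Of 4 tested basal keratins 1 was called: Krt14 stood at 553 and 375 in C9, 918 and 817 in C11 and 4887 and 5453 in C14, with a log2 fold change of -0.77. Without cells in which basal markers made up over 1% of UMIs, the log2 fold change of Krt14 was 0.38 and was not called.

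The 10 largest falls were those of 3110079O15Rik, 2310057J18Rik, Tac1, Ly6d, S100g, Ccl6, Lgals3, Kcne3, Arg1 and S100a4. S100g (chrX:162961992-162964599, minus strand), which encodes calbindin-D9k, a cytosolic calcium buffer of absorptive epithelia, stood at 1098 and 3355 CPM in C11, 12.6 and 16.2 in C9 and 2.66 and 5.13 in C14. It fell by 7.05 ± 0.43 on the log2 scale, with an adjusted p of 7.61e-20. Ly6d (chr15:74762056-74763620), a surface protein, stood at 769 and 1624 in C11, 6.32 and 4.63 in C9 and 3.60 and 17.5 in C14, a log2 fold change of -7.61 ± 0.46. C9 levels of both genes rested on few UMIs, since 3 UMIs amount to 9.49 CPM in C9 of mouse L1 and 6.94 in mouse L2. 2310057J18Rik, a protein-coding gene on chromosome 10 (28972288 to 28986303), had 1242 and 1249 UMIs in C11 and 3 and 1 in C9.

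3110079O15Rik, named Snorc in the annotation used for coordinates, had 107 and 47 UMIs in C11 and none in C9, and was at least 21.3-fold lower in C9 with 3 counts over both mice allowed for. Tac1, the gene of the neuropeptide substance P, had 18 and 49 UMIs in C11 and none in C9, which makes it at least 9.27-fold lower. Without mouse L2 its fitted log2 fold change was as large (-10.41) but was not called (adjusted p = 0.0558). Kcne3, a potassium channel subunit, had 93 and 23 UMIs in C11 and 1 and 0 in C9, a ratio of 48.2 with a counting interval of 8.47 to 1918. Without mouse L1, where C9 has none, its fitted log2 fold change was -11.07 and not called (adjusted p = 0.0543). Fitted values against 0 counts depend on the prior count of the fit and are no bounds.

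Ccl6, a chemokine, stood at 291 and 495 CPM in C11 and at 9.49 and 2.31 in C9, and Lgals3, which encodes galectin-3, at 175.5 and 622 against 9.49 and 9.25. Arg1, arginase, had 51 and 97 UMIs in C11 and 1 and 1 in C9, a ratio of 30.7 (8.36 to 256). S100a4 had 60 and 29 UMIs in C11 and 0 and 1 in C9, a ratio of 36.9 (6.46 to 1476), and basal cells held 28.8 and 28.3 CPM, against 59.8 and 36.2 in C11. Ccl6, Lgals3, Arg1 and S100a4 are also known from myeloid cells. The 9 immune markers summed to 352 and 257 CPM of all UMIs in C11, 300.5 and 76.8 in C9 and 40092 and 56143 in the immune cells of cluster C17 of the same libraries. Their part in these falls was not tested.

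Calls among the basal markers went only to lower in C9, where 6.56% of all tested genes were called. Of the 12 basal markers 4 were called lower in C9 and none higher, and 30 of 142 and 13 of 89 C11 cells had over 1% of their UMIs from these genes, against 2 of 42 and 0 of 47 C9 cells. The 0 of 47 cells allow a share of up to 6.38%, for counting error only. Of the 401 genes lower in C9, 210 stood higher in C11 than in C14 in both mice and 158 stood lower in both. The same counts were not made over all tested genes, so these are not read as a result about the lower genes. With the cells over 1% basal UMIs left out, 805 genes were called. Of the 437 higher calls 356 remained, and of the 401 lower calls 327 remained and 10 had the opposite sign.

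The genes of the endoplasmic reticulum (ER) split by role. Of 29 tested, 6 rose and 8 fell, with a median of -0.32. All 6 rises belonged to the 10 genes of the translocon and of the signal peptide machinery, which thread new secretory proteins into the ER, with a median of 0.82. Ssr4 stood at 1360 and 1092 in C9 and at 599 and 504 in C11, a log2 fold change of 1.30 ± 0.27, Ssr2 rose by 1.15 and Sec61b by 0.87 (-0.0072 for Sec61b on plain totals with milk). All 8 falls belonged to the other 19 genes, chiefly chaperones and genes of the unfolded protein response, with a median of -0.74. Hspa5, the main ER chaperone (BiP), stood at 1220 and 1096 in C9 and at 3330 and 3039 in C11, a log2 fold change of -1.31 ± 0.30. Hsp90b1 fell by 1.38 ± 0.27 and Pdia3, which forms disulphide bonds, by 1.10 ± 0.26. The split within the list was made after its values were seen.

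Of 18 tested genes of calcium and zinc handling, 7 rose and 2 fell. The calcium pumps of the plasma membrane went opposite ways. Atp2b2, the pump that moves calcium into milk, stood at 50.6 and 23.1 in C9 and at 1.99 and 1.25 in C11, a log2 fold change of 4.48 ± 0.72. Without mouse L1 it was 4.40 but not called (adjusted p = 0.0936). Atp2b1, the pump found in most cells, stood at 190 and 90.2 in C9 and at 494 and 726 in C11, a fall of 2.01 ± 0.29. Atp2c2, a calcium pump of the secretory pathway, rose by 2.30, Slc34a2, a phosphate transporter, by 3.94, Slc39a8, a zinc and metal transporter, by 3.98, and Fam20c, the kinase that phosphorylates caseins, by 2.84 ± 0.35. In tight junctions 1 of 14 tested genes rose and 2 fell, where 7.15% of all tested genes rose and 6.56% fell. These counts are too near those shares to be read as a result about the list. Cldn8 stood at 215 and 169 in C9 and at 77.8 and 37.5 in C11, a rise of 1.92 ± 0.27, and Cldn1 fell by 1.84 ± 0.42, and without mouse L2 had a log2 fold change of -0.94 that was not called (adjusted p = 0.347). Of 7 tested amino acid transporters, 2 rose and none fell.

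Of 17 tested genes of the acute phase and of STAT3, 9 rose and 1 fell, with a median of 1.20, and much of the rise lay in mouse L2. Saa1, a serum amyloid A protein, stood at 408 and 6843 CPM in C9 and at 131 and 109 in C11. Saa2 stood at 34.8 and 3307 in C9 and at 27.9 and 14.99 in C11. Its log2 fold change was 4.80 ± 0.74 in both mice together and 0.30 without mouse L2 (adjusted p = 0.892). Saa1 and Saa2 are near-identical, and counting can split their reads. Lcn2, which withholds iron from bacteria, stood at 7601 and 10233 in C9 and at 3231 and 2258 in C11, a rise of 1.86 ± 0.35, and Lbp, which binds lipopolysaccharide, rose by 1.64 ± 0.27. Lif, a cytokine that signals through STAT3, was the gene that fell, from 24.9 and 177 to 3.16 and 9.25. Without mouse L2 its log2 fold change was -2.99 and not called (adjusted p = 0.0562).

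Of 14 tested genes of defence and chemokines, 1 rose and 4 fell. Ltf, which encodes lactoferrin, an iron-binding protein of milk, was abundant in both clusters, at 5230 and 5809 in C9, 14214 and 16620.2 in C11 and 40.8 and 39.4 in C14. It fell by 1.33 ± 0.36 with an adjusted p of 0.00662, a call that was lost at equal cell number (-1.05, adjusted p = 0.0762). Cxcl1, a chemokine that draws neutrophils, stood at 145 and 99.4 in C9 and at 454 and 1105 in C11 and fell by 2.41 ± 0.31, and Nfkbia, the inhibitor and target gene of NF-kappaB, stood at 857 and 1307 against 3213 and 4894 and fell by 1.75 ± 0.31. Csf3 was called lower (log2 fold change -2.47), but without mouse L2 its log2 fold change was 0.29. Pigr, which carries immunoglobulin A into milk, rose by 1.45 ± 0.27, from 51.8 and 78.7 to 145 and 171. The promoter of Cxcl1 held 2 matches to the 10-base NF-kappaB motif (GGG, any 2 bases, TT, any base, CC, on either strand, in capitals), 89 and 71 bases before its start, and that of Nfkbia held 1, at 29 bases. The promoter of Ltf held no match, and no promoter was found for Csf3. Those of the largest falls named above, where a promoter was found, held no match either.
Cxcl1 (chr5:90890995-90891244, plus strand): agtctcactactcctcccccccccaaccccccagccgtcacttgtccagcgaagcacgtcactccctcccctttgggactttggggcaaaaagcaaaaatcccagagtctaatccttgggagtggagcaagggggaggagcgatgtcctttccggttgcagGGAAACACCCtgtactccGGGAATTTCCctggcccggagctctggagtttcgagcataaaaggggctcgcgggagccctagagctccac
This motif was found in 5.476% of all genes with a promoter, 8.503% of those lower in C9, 6.006% of those higher and 6.68% of those not called.

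Of 20 tested immediate early genes 4 fell and none rose, with a median of -0.44. Nr4a1 stood at 190 and 273 in C9, 655 and 656 in C11 and 557 and 470 in C14, a log2 fold change of -1.36 ± 0.27, and Egr1 fell by 0.93 ± 0.27. These genes are known to respond to tissue dissociation, whose part in these values was not tested.

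Mitochondrial genes were higher in C9. Of 7 tested mitochondrially encoded genes 6 rose, with a median of 1.08 and a summed level of 11168 and 10964 CPM in C9 against 4439 and 5618 in C11. mt-Cytb, a subunit of complex III, stood at 4060 and 4285 against 1374 and 1803 and rose by 1.56 ± 0.31, and mt-Nd1, a subunit of complex I, rose by 1.36 ± 0.30. The mitochondrial share of all UMIs, with milk counted, had a median of 0.627% and 0.600% per cell in C9 and 0.342% and 0.468% in C11, so that it was higher in C9 despite the milk in its totals. Of 73 tested nuclear genes of oxidative phosphorylation, 31 rose and none fell, 70 had a positive log2 fold change and the median was 0.70. With milk left out of the totals 27 rose. Ndufa1 stood at 477 and 472 in C9 and at 180 and 171 in C11, a rise of 1.59 ± 0.25, and Cox6a1 rose by 1.30 ± 0.27.

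Other abundant or general gene groups gave no call. None of 83 ribosomal protein genes was called, with a median of 0.11 and a summed level of 183334 and 190242 CPM in C9 against 203905 and 180321 in C11. None of 12 tested genes of antigen presentation was called, with a median of 0.01. Of 26 genes of cell division 11 passed the filter on low counts and none was called. With 13.7% of all tested genes called, few or no calls would fall in lists of 12 or 11 genes. The counts for antigen presentation and cell division therefore do not show the clusters to be alike in these genes.

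In gestation, the step from progenitor cells (C10) to differentiated cells (C8) was taken in other mice, and the difference between the steps was tested as an interaction over 8 sums. The difference was called in 312 of 8798 genes, or 3.55%, and was more positive in lactation in 141 (1.6%) and more negative in 171 (1.94%). Of 24 tested genes of fat synthesis, 8 were more positive in lactation and 1 was more negative. Fasn rose by 4.24 in lactation and had a log2 fold change of 0.84 in gestation, where it stood at 72.4 and 44.4 CPM in C8 and at 33.8 and 29.4 in C10. The difference of the steps was 3.40 ± 0.31. Scd1 rose by 5.05 in lactation and had a log2 fold change of 2.18 in gestation, and Slc25a1, Scd2 and B4galt1 also had larger steps in lactation, by 2.91, 2.51 and 2.20.

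Among the milk protein genes, 1 of 8 was more positive and 2 were more negative in lactation. Csn2 had a log2 fold change of 2.78 in lactation and 4.98 in gestation, a difference of -2.20 ± 0.25. In gestation it took 3.11% and 2.03% of UMIs in C8 and 0.119% and 0.0605% in C10, so that the progenitor cells of lactation, at 2.57% and 2.04%, held it at the level of the differentiated cells of gestation. Csn1s2a likewise had a log2 fold change of 3.51 in lactation and 6.78 in gestation. Csn1s2b had the opposite pattern, with 7.35 in lactation and 1.57 in gestation, where it stood at 24.0 and 12.7 CPM in C8 and 6.91 and 5.001 in C10. The 8 milk protein genes together took 0.408% and 0.203% of the UMIs of C10 in G1 and G2. In the basal cells of gestation (C13) they took 0.178% and 0.0942%. The part of this background in the gestation steps was not tested.

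Of 30 tested ER genes, none was more positive and 7 were more negative in lactation. Hsp90b1 had a log2 fold change of -1.41 in lactation and 0.25 in gestation, and Hspa5 of -1.34 and 0.03, with Hspa5 at 792 and 652 CPM in C8 and 778 and 619 in C10. The levels of Hspa5 in C11, 3330 and 3039, were the highest of the 8 sums. The metallothionein gene Mt2 had a log2 fold change of 0.27 in lactation and 3.64 in gestation. Mfge8 had 0.45 in lactation and -1.96 in gestation. No difference was found for Aldh1a3, with log2 fold changes of -3.55 in lactation and -3.62 in gestation and a difference of 0.07 ± 0.56 (adjusted p = 0.975), or for Kit, with a difference of 0.20 ± 0.29 (adjusted p = 0.817). For Aldh1a3 the error leaves room for a sizeable difference. The difference was called in none of 26 tested genes of cell division, with a median of -0.46, and in none of 75 of oxidative phosphorylation, with a median of -0.002. With 3.55% of all genes called, few or no calls would fall in a list of 26, so that its count does not show the steps to be alike.

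**Figure D5:**
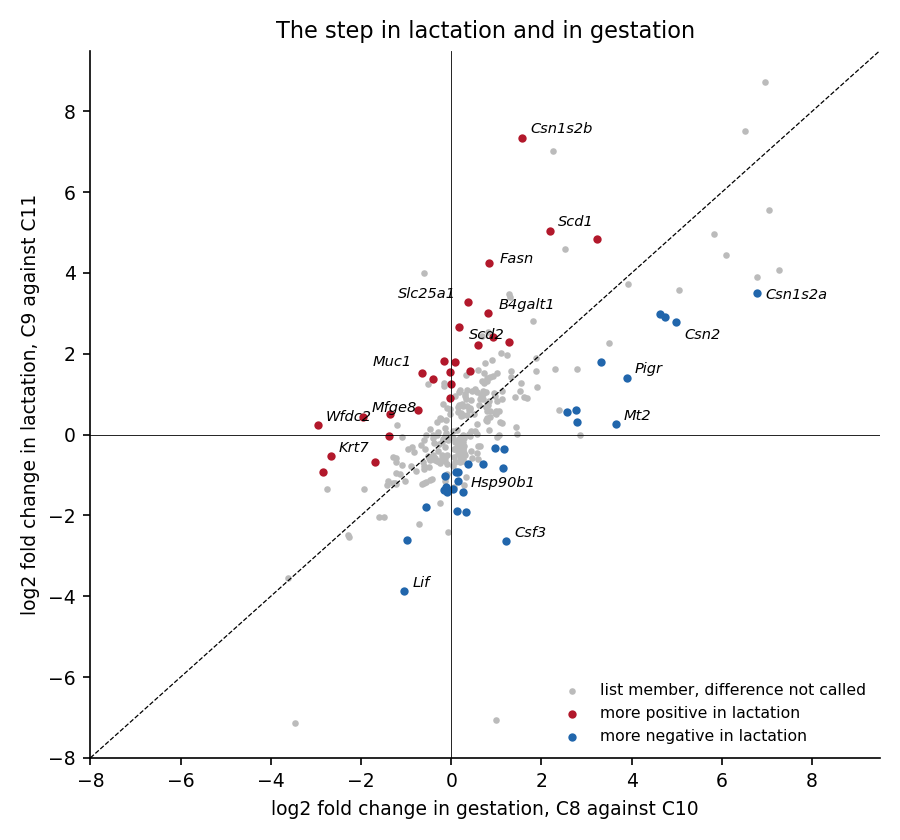
Log2 fold change of members of the gene lists from progenitor to differentiated cells in lactation (C9 against C11) against that in gestation (C8 against C10), without ribosomal and oxidative phosphorylation genes, with the dashed line at equal steps. Red genes such as Fasn, with 4.24 in lactation and 0.84 in gestation, lie above the line, and blue genes such as Csn2, with 2.78 and 4.98, lie below it.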

How the data were processed

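Single EpCAM-positive mammary cells were profiled on the 10x Chromium platform (3' kit v2), with 1 library per mouse. For 27998 genes and each barcode, the deposited matrices give raw UMI counts, which the authors made with Cell Ranger (STAR, mm10, versions not given in the sources used here) without normalisation. The deposited annotation of the authors gives the quality flag and cluster of each cell, its UMI and gene counts, and its mitochondrial fraction. No clusters were made again. A cell doublet score (scanpy 1.11.5) marked 1 cell of L1 and 0 of L2, so it removed none and the cells with the highest scores were left out in an alternative instead.

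Counts were summed per mouse and cluster. Comparisons used edgeR 4.0.16 (R 4.3.3): TMM, filterByExpr (minimum count 10, minimum total 15), quasi-likelihood F-test, Benjamini-Hochberg at 0.05. The mouse was a block because both clusters came from the same animal. Deviations of the 2 clusters of a mouse correlated at 0.078 across genes. Residual degrees of freedom were 1 for C9 against C11 (prior 54.6) and 2 for the interaction (prior 15.4). The block takes up differences in level between mice. With such priors, p-values rest mostly on how far the step between clusters varies between mice, in a measure shared across genes. How far the step of a single gene differs between the 2 mice of a stage counts for little in them.

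The clusters, gene lists and tests were chosen with earlier results of these data known. Named genes were the 10 with the largest rise and fall among called genes with at least 20 CPM in 1 cluster, the same direction in both mice and no overlap, the members of the lists, and in the interaction the 5 largest differences each way. Intervals are exact binomial (95%), floors are 3 counts, and both cover counting error only. Coordinates are GRCm38 (GENCODE), matched by gene ID, and promoters are those of RefSeq (GRCm38.p6), found for 20 of 29 genes looked up. The combined matrix and the nulliparous and post-weaning matrices were not used here.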

Additional observations from a re-analysis of the deposited data

Results flagged for a closer look

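The step from progenitor to differentiated cells differed between lactation and gestation in 312 genes by the test of the difference itself, and the named ones among them follow, each as the log2 step in lactation minus that in gestation. The largest positive differences by the rule were those of Cybrd1 (12.78), Defb1 (6.46), Csn1s2b (5.78), C4b (4.72) and Hpgd (4.68). The value of Cybrd1 rests on 2 UMIs in C9 and none in C11, and it was called in 3 of 9 alternatives. Defb1, a beta-defensin, stood at 72.7 and 53.2 CPM in C9, 0.997 and 3.75 in C11, 0.586 and 1.40 in C8 and 0 and 5.63 in C10. The largest negative differences were those of Nxf7 (-10.20), Tac1 (-9.86), Klk14 (-6.59), Arg1 (-5.35) and Alox15 (-5.32). Nxf7 and Tac1 had no UMI in C9, so that these values depend on the prior count of the fit and are no bounds. Alox15, a lipoxygenase, stood at 9.49 and 2.31 in C9, 38.9 and 61.2 in C11, 40.6 and 37.7 in C8 and 8.45 and 8.13 in C10, and was called in all 9 alternatives.

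Among milk, fat and lactose genes the differences were -2.20 for Csn2, -3.27 for Csn1s2a, 3.40 for Fasn, 2.91 for Slc25a1, 2.87 for Scd1, 2.51 for Scd2, 2.20 for B4galt1, -2.02 for Hk1, -2.02 for Lipa, 2.18 for Muc1 and 2.41 for Mfge8. Among ER genes they were -1.99 for Herpud1, -1.66 for Hsp90b1, -1.37 for Hspa5, -1.29 for Pdia3, -1.18 for Creld2, -1.07 for Sdf2l1 and -0.89 for Calr. The genes of other lists were Krt7 (2.14), Cldn1 (-2.26), Mt2 (-3.37), Mt1 (-2.17), Fam20a (-2.47), Lif (-2.84), Pigr (-2.47), Wfdc2 (3.20) and Csf3 (-3.85). Wfdc2, a protease inhibitor gene, stood at 101 and 55.5 in C9, 46.9 and 95.0 in C11, 4.35 and 5.41 in C8 and 36.1 and 39.4 in C10.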

How the results depend on the processing

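The count of genes called in C9 against C11 (838) was 3255 on plain totals with no TMM, 199 with DESeq2 (adjusted p not given for 3557 genes), 137 at the thresholds of the study, 491 with no replicate block, 474 at equal depth, 440 at equal cell number, and 767 to 1341 with a mouse left out. Plain totals without milk protein genes gave 303 higher and 475 lower calls, with a median log2 of -0.14. With UMIs per cell as the scale the split was 306 to 365, and with no filter 338 to 442. The interaction count (312) was 203 with DESeq2, 132 with no replicate block, 515 with no filter and 145 to 748 with a mouse left out: 155 without G1, 145 without G2, 748 without L1 and 461 without L2. On plain totals without milk its split was 119 to 249. The milk share difference (36.7 points) was 33.3 as the median over cells and 35.8 to 37.5 with a mouse left out. Of 95 genes followed across the alternatives of C9 against C11, 90 were called, and 3 changed sign: Krt14 (0.38 without cells over 1% basal UMIs), Sec61b (-0.0072 on plain totals) and Csf3 (0.29 without replicate 2 and -4.36 without replicate 1). An alternative in which a gene was filtered out or had no adjusted p was not counted for that gene, also not as a lost call. Of the alternatives for single genes, 1465 kept the call and sign, 119 lost the call and 3 gained it. In the interaction, 280 kept it and 51 lost it. With DESeq2, 17 genes lost the call, among them Aldh1a3 (log2 fold change -4.14), Kit (-1.21), Saa1 (3.97), Saa2 (4.22), Krt8 (-0.95) and Krt18 (-0.89), whose fold changes were about as large as with edgeR. With a lactation mouse left out, each cluster has 1 library and is assumed to vary like the gestation clusters. The cause of these changes was not tested. The 42 to 142 cells per sum limit low genes, where 3 UMIs are 9.49 CPM in C9 of L1.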
